A study of Mus musculus with 16 samples.

Results

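The protocadherins are the largest branch of the cadherin family of adhesion proteins, and 64 of their genes were followed across the mesenchyme of the developing mouse bladder and urethra. They were chosen by their symbol, which starts with Pcdh, and selected on their mean level over all 16 libraries, which had to be at least 0.5 CPM (counts scaled to a common library total). Of 69 such symbols among the 55228 genes of the count table, 64 met this limit. They comprised 9 of 13 Pcdha genes, 21 of 22 Pcdhb genes, 22 of 22 Pcdhg genes and 12 of 12 genes outside the clusters. That mean, taken on plain library totals, is given below as a description only, and all other CPM are on TMM-scaled totals.

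The samples were wild-type, untreated CD-1 embryos, an outbred mouse stock, at embryonic day 16.5. The 4 groups were male pelvic urethra, female pelvic urethra, male bladder and female bladder, with 4 libraries each. Each of 4 litters gave 1 library to every group, from the pooled tissue of its embryos of that sex, after the epithelium had been peeled off following trypsin. The labels state the purpose as finding genes that mark the bladder or the urethral compartment.

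Clustered protocadherins lie in 3 neighbouring arrays of first exons, each exon with a promoter of its own. In the Pcdha and Pcdhg arrays the chosen first exon is spliced to constant exons shared by the array, whereas Pcdhb genes consist of a single coding exon. Neurons are known to choose promoters in combinations that differ from cell to cell, under the control of DNA methylation, CTCF and cohesin, and the proteins then let a neuron recognise its own branches. Non-clustered protocadherins are single genes that act in cell sorting, axon guidance and morphogenesis in many tissues.

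On GRCm38 the Pcdha rows spanned chr18:36930184-37187661, the Pcdhb rows chr18:37264938-37524479 and the Pcdhg rows chr18:37661793-37841873, all on the plus strand. Reads that overlapped several genes were not counted, so a Pcdha or Pcdhg count stems from the gene's own first exon and not from the constant exons. The bases that belonged to 1 gene alone had a median of 2478 per Pcdha row, 3714 per Pcdhb row and 2629 per Pcdhg row. Levels are compared between genes as CPM per kb of these own bases. Exceptions are shares of summed CPM and rankings given as by CPM, which carry no correction for length. Library totals were 24447435 to 29698009 counts in urethras and 18577097 to 22293812 counts in bladders (n = 8 libraries each), so depth and tissue went together.

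Most protocadherin genes were higher in the urethra than in the bladder. In the edgeR quasi-likelihood test over 18254 genes, 60 of the 64 members were called higher in the urethra (adjusted p below 0.05), against 36.5% of all tested genes, and 2 were lower, against 38.5% of all tested genes. The 2 lower members were Pcdh7 and Pcdhgc5, and the 2 without a call were Pcdhgb8 and Pcdh15. The median log2 fold change of urethra over bladder was 1.21 over the members and −0.03 over all tested genes. All 60 members called higher, and both called lower, moved that way in 8 of 8 pairs of urethra and bladder from the same litter and sex. The share of all tested genes that did so was not counted, so the pairs are a description only. The libraries of the tissues did not overlap for 56 members, beside 42.3% of all tested genes that did not overlap and 75.0% that were called in either direction. For members without overlap the direction of the pairs follows from that. Since 8 members, all Pcdha genes, reached the 0.5 CPM limit through the urethra alone and so had to differ, the counts were also taken over the other 56. Of these 52 were higher, 2 lower and 2 not called, with a median log2 fold change of 1.025, and 48 did not overlap.

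The median differed from class to class, a difference that was not tested. The 9 Pcdha members had a median log2 fold change of 4.07, the 21 Pcdhb members one of 1.51, the 22 Pcdhg members one of 0.88 and the 12 non-clustered members one of 0.97. Each of the 9 Pcdha and each of the 21 Pcdhb members was called higher. Of the Pcdhg members 20 were higher and 1 lower, and of the non-clustered members 10 were higher and 1 lower. The count and median of the Pcdha members, 8 of which had a bladder mean below the limit, describe them and support nothing. The same holds for the fold changes and adjusted p of these 8 given below. All Pcdhb, Pcdhg and non-clustered members had means of at least 0.5 CPM in both tissues.

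**Figure D1:**
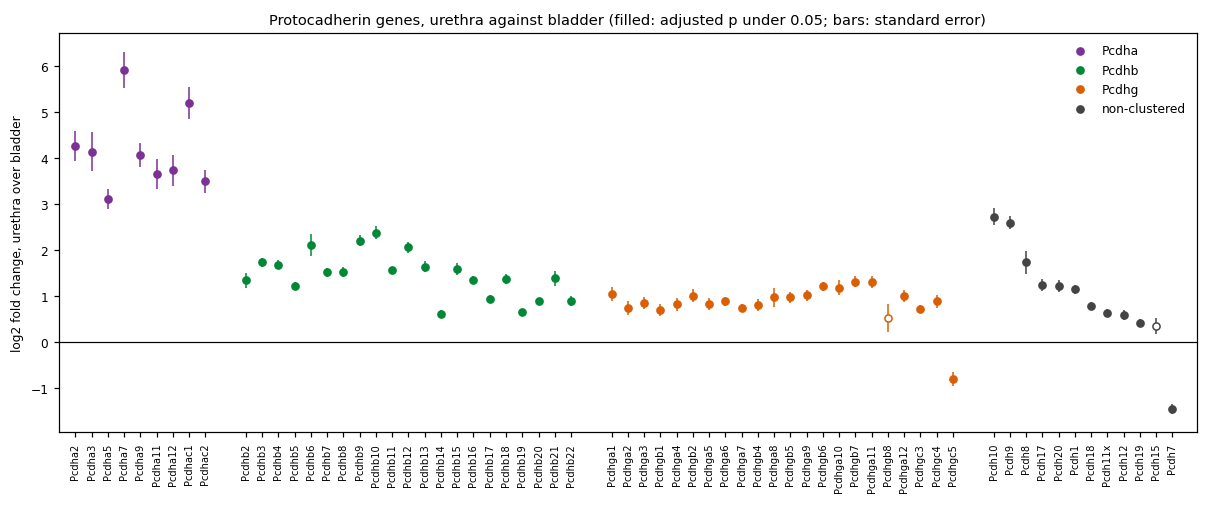
Log2 fold change of urethra over bladder for each of the 64 members, with its standard error as a bar, in cluster order for Pcdha, Pcdhb and Pcdhg and by size for the non-clustered genes. Filled points passed an adjusted p under 0.05. Pcdha members lie at 3.11 and above, whereas Pcdhgc5 and Pcdh7 lie below 0.

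Summed over its members, each class was higher in the urethra, by factors that differed. The Pcdha members together had 43.9 ± 10.7 CPM in urethras and 3.42 ± 2.42 CPM in bladders (SD, n = 8 each), a ratio of the means of 12.8. The Pcdhb members together had 200.9 ± 17.4 CPM in urethras and 82.9 ± 9.71 CPM in bladders, a ratio of 2.42. The Pcdhg members had 287 ± 42.9 CPM in urethras and 161 ± 29.2 CPM in bladders, a ratio of 1.78. The non-clustered members had 495 ± 91.4 CPM in urethras and 352 ± 58.2 CPM in bladders, a ratio of 1.40. Sums over the Pcdha, Pcdhb and Pcdhg members did not overlap between the tissues, and those over the non-clustered members did. Of the 9 Pcdha members 8 reached the 0.5 CPM limit through the urethra alone. The Pcdha sum, its ratio and its separation are therefore a description only.

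**Figure D2:**
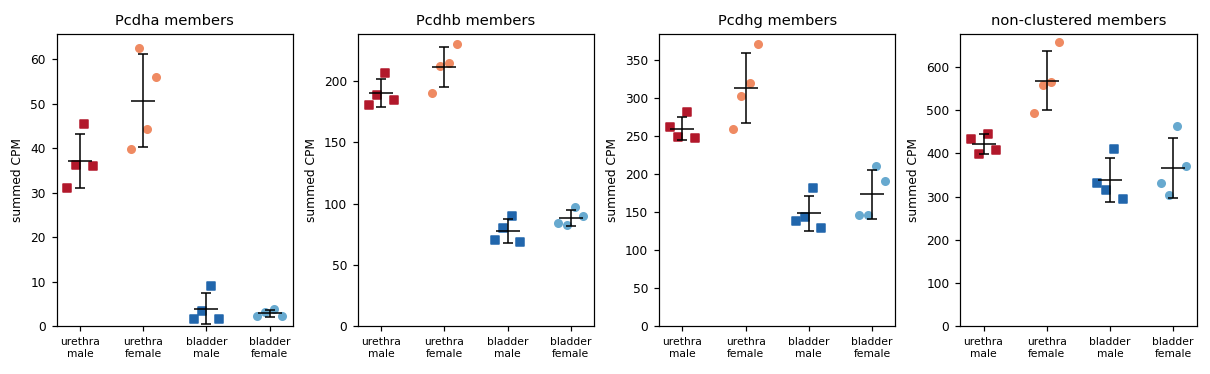
Summed CPM of the members of each class in every library, with the mean and SD of each group of 4, in male urethra, female urethra, male bladder and female bladder. The Pcdha sum is 31.1 to 62.5 CPM in urethras and 1.66 to 9.07 CPM in bladders.

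The Pcdha genes were low in the bladder, where 8 of the 9 members averaged under 0.5 CPM and Pcdhac2 alone averaged more. Their sums were 31.1, 36.2, 45.4 and 35.9 CPM in male urethras and 39.9, 62.5, 44.3 and 56.1 CPM in female urethras, against 1.66, 3.36, 9.07 and 1.72 CPM in male bladders and 2.29, 3.12, 3.85 and 2.28 CPM in female bladders. The third male bladder stood above the other 7 bladders, which ran from 1.66 to 3.85 CPM. Without it the bladder mean was 2.61 ± 0.843 CPM (SD, n = 7) and the ratio 16.8, likewise a description only. The same library's sums over Pcdhb (89.8 CPM) and Pcdhg (181.5 CPM) lay within the range of the other bladders. Both were still the highest of the male bladders, as was its non-clustered sum (410.2 CPM). The third female bladder, from the same litter, was likewise the highest female bladder in every class. Its sums were 3.85 CPM for Pcdha, 97.2 CPM for Pcdhb, 210.7 CPM for Pcdhg and 462.2 CPM for the non-clustered members.

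Pcdhac2, a C-type gene at the end of the array that serotonergic neurons use for axon spacing, carried the larger share of the Pcdha CPM in every library. It made up 54.0 ± 0.838% of the summed CPM of the members in urethras and 62.5 ± 5.36% in bladders (SD, n = 8 each). Pcdhac2 had 16.5, 19.01, 24.8 and 19.5 CPM in male urethras and 21.8, 34.2, 24.04 and 30.5 CPM in female urethras, against 1.15, 1.995, 4.95 and 1.13 CPM in male bladders and 1.29, 2.102, 2.48 and 1.43 CPM in female bladders. No bladder reached the level of any urethra, and the third male bladder was the highest of the bladders (log2 fold change 3.497 ± 0.25, adjusted p = 3.61e-09). Its level per kb of own bases was 7.86 ± 1.99 in urethras and 0.683 ± 0.418 in bladders.

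Pcdha12, the next in level among the alternate first exons, stood at 2.14 ± 0.436 CPM per kb of own bases in urethras and 0.161 ± 0.188 in bladders (SD, n = 8 each). It had 4.06, 4.79, 5.79 and 4.904 CPM in male urethras and 3.94, 6.98, 5.58 and 6.41 CPM in female urethras, against 0.201, 0.146, 1.53 and 0.107 CPM in male bladders and 0.336, 0.341, 0.253 and 0.265 CPM in female bladders. The third male bladder held 1.53 CPM and no other bladder passed 0.341 CPM (log2 fold change 3.74 ± 0.34, adjusted p = 4.3e-08; 4.63 without that library). The other 7 Pcdha members had urethra means of 0.581 to 0.758 CPM per kb, within each other's spread.

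Pcdha7 and Pcdhac1 had the highest log2 fold changes of the class. Pcdha7 had 0.962, 1.05, 1.23 and 1.002 CPM in male urethras and 1.24, 1.52, 1.26 and 1.69 CPM in female urethras, against 0, 0.0487, 0.185 and 0.0537 CPM in male bladders and 0, 0, 0 and 0 CPM in female bladders. All 4 female bladders were at 0 counts, against 166 counts in the female urethras, which were at least 38.3-fold higher when 3 counts are allowed over the group of female bladders. Its fitted log2 fold change (5.93 ± 0.39, adjusted p = 6.75e-09) rests on those 0 counts, and limma-voom gave 4.79. Pcdhac1, the other C-type gene of the array, had 1.68, 1.33, 2.002 and 1.796 CPM in male urethras and 1.84, 2.41, 1.74 and 2.43 CPM in female urethras, against 0, 0.146, 0.278 and 0.107 CPM in male bladders and 0, 0, 0.0506 and 0 CPM in female bladders. The female bladders held 1 count in all, against 244 counts in the female urethras, a ratio of 169 with an exact 95% counting interval of 30.0 to 6697. Its fitted log2 fold change (5.205 ± 0.34, adjusted p = 6.1e-10) was 6.16 without the library that held this count.

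Pcdha5 had the lowest fold change of the class, with 1.46, 1.26, 2.002 and 1.14 CPM in male urethras and 1.87, 2.13, 1.77 and 2.597 CPM in female urethras, against 0.1004, 0.0973, 0.278 and 0.161 CPM in male bladders and 0.2797, 0.284, 0.203 and 0.212 CPM in female bladders (log2 fold change 3.11 ± 0.21, adjusted p = 7.5e-10). The urethras still lay above every bladder. Pcdha3, Pcdha9 and Pcdha11 had log2 fold changes of 4.14, 4.07 and 3.66. As Pcdha members with few bladder counts have fitted values that depend on the fit, the pooled counts were also set against each other, which gave a median log2 ratio of 4.22 over the 9 members, with none at 0 in all 8 bladders.

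The limit of 0.5 CPM fell between Pcdha6 at a mean of 0.376 CPM and Pcdha7 at 0.667 CPM, with Pcdha2 next above at 0.845 CPM and Pcdha1 far below at 0.0691 CPM. Pcdha2, just inside, had 0.784, 1.05, 1.86 and 1.21 CPM in male urethras and 1.43, 2.49, 1.65 and 1.96 CPM in female urethras, against 0.0502, 0.0973, 0.185 and 0.0537 CPM in male bladders and 0.0559, 0.0568, 0.101 and 0 CPM in female bladders. Pcdha6, just outside, had 0.641, 0.524, 0.843 and 0.483 CPM in male urethras and 0.572, 0.882, 0.677 and 0.911 CPM in female urethras, against 0, 0.0487, 0.139 and 0 CPM in male bladders and 0, 0.0568, 0 and 0 CPM in female bladders. Pcdha1, Pcdha4 and Pcdha8 had 29, 19 and 23 counts over all urethras and 2, 0 and 0 counts over all bladders. For Pcdha1 the ratio was 10.7 with an exact 95% counting interval of 2.70 to 92.2. Pcdha4 and Pcdha8 were at least 4.66-fold and 5.64-fold higher in urethras when 3 counts are allowed over the bladders. The row of Pcdha4 had 494 own bases, the fewest of the array. Pcdhb1 had a mean of 0.0135 CPM. Intervals and floors cover counting error only.

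Every Pcdhb member rose, with log2 fold changes between 0.62 and 2.38. The highest rises were those of Pcdhb10 and Pcdhb9. Pcdhb10 had 3.78, 4.02, 4.78 and 4.801 CPM in male urethras and 4.16, 4.37, 5.55 and 4.86 CPM in female urethras, against 0.703, 0.778, 0.972 and 0.698 CPM in male bladders and 0.783, 0.739, 1.47 and 0.796 CPM in female bladders (log2 fold change 2.38 ± 0.14, adjusted p = 1.61e-10). Pcdhb9 had 14.96, 10.9, 16.1 and 11.9 CPM in male urethras and 16.5, 12.7, 16.4 and 13.02 CPM in female urethras, against 3.06, 1.75, 2.87 and 2.36 CPM in male bladders and 3.52, 3.01, 3.899 and 4.25 CPM in female bladders (log2 fold change 2.21 ± 0.12, adjusted p = 9.64e-11). Both genes were separated fully between the tissues.

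The lowest rises were those of Pcdhb14 and Pcdhb19. Pcdhb14 had 9.62, 9.58, 10.1 and 9.91 CPM in male urethras and 10.2, 9.02, 11.4 and 11.1 CPM in female urethras, against 5.87, 5.304, 7.08 and 4.94 CPM in male bladders and 6.601, 7.05, 8.35 and 7.803 CPM in female bladders (log2 fold change 0.62 ± 0.08, adjusted p = 3e-06). Pcdhb19 had 11.9, 12.3, 12.1 and 11.8 CPM in male urethras and 12.04, 13.7, 12.1 and 14.9 CPM in female urethras, against 7.43, 8.76, 8.43 and 6.82 CPM in male bladders and 8.95, 6.82, 8.66 and 8.23 CPM in female bladders (log2 fold change 0.65 ± 0.07, adjusted p = 5.96e-07). Even for these genes the lowest urethra was above the highest bladder.

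By CPM the leading members of the array were Pcdhb17 and Pcdhb22. Pcdhb17 had 17.6, 17.1, 18.8 and 17.5 CPM in male urethras and 16.7, 19.1, 20.2 and 21.1 CPM in female urethras, against 8.43, 11.3, 10.4 and 8.81 CPM in male bladders and 10.5, 7.27, 10.1 and 10.1 CPM in female bladders (log2 fold change 0.94 ± 0.08, adjusted p = 2.36e-08). Pcdhb22 had 13.97, 15.5, 17.5 and 15.02 CPM in male urethras and 14.1, 18.6, 18.4 and 19.3 CPM in female urethras, against 6.88, 8.03, 11.3 and 7.63 CPM in male bladders and 8.73, 9.21, 10.4 and 9.02 CPM in female bladders (log2 fold change 0.89 ± 0.09887, adjusted p = 3.82e-07). Each urethra again lay above each bladder, for Pcdhb22 with 13.97 CPM as the lowest urethra and 11.3 CPM as the highest bladder.

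Per kb of own bases the order of the Pcdhb genes changed between the tissues. In urethras Pcdhb9 (4.596 ± 0.721), Pcdhb7 (4.44 ± 0.486) and Pcdhb20 (4.43 ± 0.257 CPM per kb) came first and did not differ beyond their SDs (n = 8 libraries). In bladders Pcdhb20 (2.38 ± 0.2499) and Pcdhb17 (2.06 ± 0.285 CPM per kb) came first, and Pcdhb9 (1.01 ± 0.264 CPM per kb) was the eighth. No single Pcdhb gene led the array as Pcdhac2 led Pcdha. Genes earlier in the array tended to have larger log2 fold changes, with medians of 1.62 over the first 10 members and 1.36 over the last 11 (Spearman's rho of order and log2 fold change −0.51 over 21 genes of the same libraries, given as a description). The same rho was −0.23 over the 9 Pcdha and 0.04 over the 22 Pcdhg members. Identical stretches bear on few Pcdhb genes. Of all 100-base windows of a transcript, those also found in another gene made up a median of 0.242% over the Pcdhb members. The highest were 7.73% for Pcdhb21 and 5.39% for Pcdhb22. As multimapping reads were not counted, reads from such stretches may be missing from the counts of these 2 genes.

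**Figure D3:**
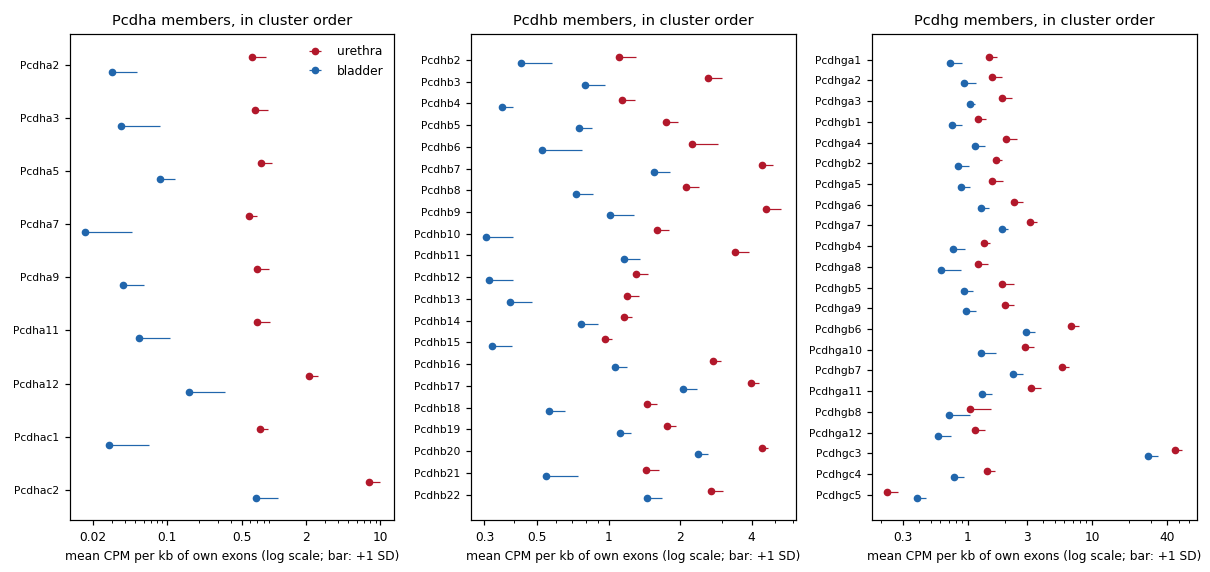
Mean level of each Pcdha, Pcdhb and Pcdhg member in urethras and bladders (n = 8 each), as CPM per kb of the bases that belong to that gene alone, on a log scale, in cluster order, with a bar of 1 SD upward. Pcdhac2 (7.86 in urethras) and Pcdhgc3 (46.5 in urethras) stand above the rest of their arrays, and Pcdhgc5 is the gene whose bladder point lies to the right.

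The Pcdhg array was led by 1 gene in both tissues. Pcdhgc3, a C-type gene that promotes dendrite branching in cortical neurons, made up 54.7 ± 0.780% of the summed CPM of the members in urethras and 59.0 ± 2.08% in bladders (SD, n = 8 each). Pcdhgc3 had 145, 137, 149.8 and 138 CPM in male urethras and 143, 165, 177 and 202 CPM in female urethras, against 83.8, 83.1, 103 and 74.7 CPM in male bladders and 88.4, 83.3, 130.1 and 117 CPM in female bladders (log2 fold change 0.72 ± 0.0957, adjusted p = 3.98e-06). The lowest urethra had 137 CPM and the highest bladder 130.1 CPM. Its level was 46.5 ± 6.74 CPM per kb in urethras and 28.2 ± 5.74 in bladders, against 6.81 ± 1.000 and 2.93 ± 0.558 CPM per kb for Pcdhgb6, the next in the array.

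Pcdhgb7 and Pcdhga11 rose most in the array. Pcdhgb7 had 14.1, 12.8, 15.1 and 12.6 CPM in male urethras and 12.9, 14.9, 17.2 and 18.7 CPM in female urethras, against 5.02, 5.11, 6.85 and 5.05 CPM in male bladders and 5.71, 4.55, 8.05 and 7.17 CPM in female bladders (log2 fold change 1.31 ± 0.12, adjusted p = 2.1e-08). Pcdhga11 had 7.73, 7.45, 7.94 and 6.67 CPM in male urethras and 7.21, 9.304, 9.45 and 12.2 CPM in female urethras, against 2.86, 2.92, 4.26 and 2.79 CPM in male bladders and 2.63, 3.58, 4.56 and 3.61 CPM in female bladders (log2 fold change 1.31 ± 0.13, adjusted p = 9.14e-08). Pcdhgb6 had 15.6, 15.3, 15.8 and 15.5 CPM in male urethras and 16.3, 19.4, 19.8 and 21.99 CPM in female urethras, against 5.97, 7.01, 9.45 and 6.02 CPM in male bladders and 6.15, 7.67, 8.71 and 9.08 CPM in female bladders (log2 fold change 1.21 ± 0.1012, adjusted p = 1.17e-08). For all 3 genes every urethra was above every bladder.

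Among the Pcdhg members that rose, Pcdhgb1 rose least. It had 3.38, 2.45, 3.62 and 3.14 CPM in male urethras and 2.73, 2.61, 3.52 and 3.74 CPM in female urethras, against 1.96, 1.995, 2.04 and 2.52 CPM in male bladders and 1.34, 1.48, 2.43 and 1.86 CPM in female bladders (log2 fold change 0.69 ± 0.13, adjusted p = 0.000193). The fourth male bladder, at 2.52 CPM, was above the lowest urethra, at 2.45 CPM. Its call within males was lost with the epithelium level as a covariate (adjusted p = 0.12) and without the male libraries of litter 3 (adjusted p = 0.0775), and held in the other 24 of 26 alternatives (adjusted p 0.00324 to 0.12 over all).

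Pcdhgc5, the last C-type gene of the array, moved the other way. It had 0.998, 0.979, 0.808 and 1.04 CPM in male urethras and 0.731, 1.32, 0.968 and 1.38 CPM in female urethras, against 1.505, 1.36, 1.67 and 2.26 CPM in male bladders and 1.96, 1.53, 2.18 and 1.86 CPM in female bladders. Its level was thus lower in the urethra, at 0.223 ± 0.0490 CPM per kb, against 0.389 ± 0.0708 CPM per kb in bladders (SD, n = 8 each; log2 fold change −0.803 ± 0.15, adjusted p = 0.000128). The tissues overlapped by a small margin, since the highest urethra had 1.38 CPM and the lowest bladder 1.36 CPM. In both tissues Pcdhgc5 was the lowest of the 22 Pcdhg members per kb of own bases.

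Pcdhgb8, which GENCODE mouse release M21 lists as a polymorphic pseudogene, was the Pcdhg member without a call. It had 1.78, 3.08, 2.18 and 1.38 CPM in male urethras and 1.46, 4.69, 2.03 and 4.08 CPM in female urethras, against 0.552, 1.898, 2.41 and 0.859 CPM in male bladders and 1.23, 2.78, 2.08 and 2.39 CPM in female bladders (log2 fold change 0.53 ± 0.31, adjusted p = 0.129). The tissues overlapped widely, with 1.38 to 4.69 CPM in urethras and 0.552 to 2.78 CPM in bladders. The 4 libraries of the first litter were all below their group means, and the 4 of the second litter all above. With the litter as a replicate block the gene was called (log2 fold change 0.54, adjusted p = 0.0471, within 0.0131 to 0.445 over all alternatives).

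Markers of several cell types differed between the tissues. Their counts stand beside 36.5% higher and 38.5% lower over all tested genes. All 20 genes of the neuron list were higher in the urethra, with a median log2 fold change of 3.88, a summed level of 3692 to 6148 CPM in urethras and 236.8 to 1159 CPM in bladders, and no gene at 0 in either tissue. The third male bladder, which stood out for Pcdha, also had the highest neuron level of the bladders, with a mean log2 CPM of 4.89 against 1.99 to 3.63 in the other 7. Of 12 glia genes 10 were higher and 1 lower (median 2.11), with summed levels of 428 to 545 CPM in urethras and 225 to 461.5 CPM in bladders. Of 18 skeletal muscle genes 14 were higher and 4 lower (median 4.16), with sums of 321 to 494 CPM in urethras and 1196 to 1588 CPM in bladders. The sum thus ran opposite to the median. Ckm was among the 4 lower genes, and the weight of each gene in the sum was not set apart. All 12 smooth muscle genes were lower (median −3.31), with 1991 to 2659 CPM in urethras and 16720 to 21820 CPM in bladders. Of 14 endothelium genes 12 were higher and 2 lower (median 0.68; 632 to 803 CPM in urethras and 388 to 595 CPM in bladders). Of 20 epithelium genes 2 were higher and 10 lower (median −0.36; 886 to 3297 CPM in urethras and 2263 to 5667 CPM in bladders), and of 8 mesothelium genes 7 were lower (median −3.14; 213 to 496.5 CPM in urethras and 861 to 1589 CPM in bladders). Of 12 mesenchyme genes, which mark the labelled tissue, 5 were higher and 5 lower (median 0.01; 11000 to 13450 CPM in urethras and 16870 to 21440 CPM in bladders). No list had a gene at 0 throughout a group. In bulk tissue fewer cells of a type and less RNA per cell cannot be told apart, and the part of these cell types in the protocadherin differences was not tested.

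**Figure D4:**
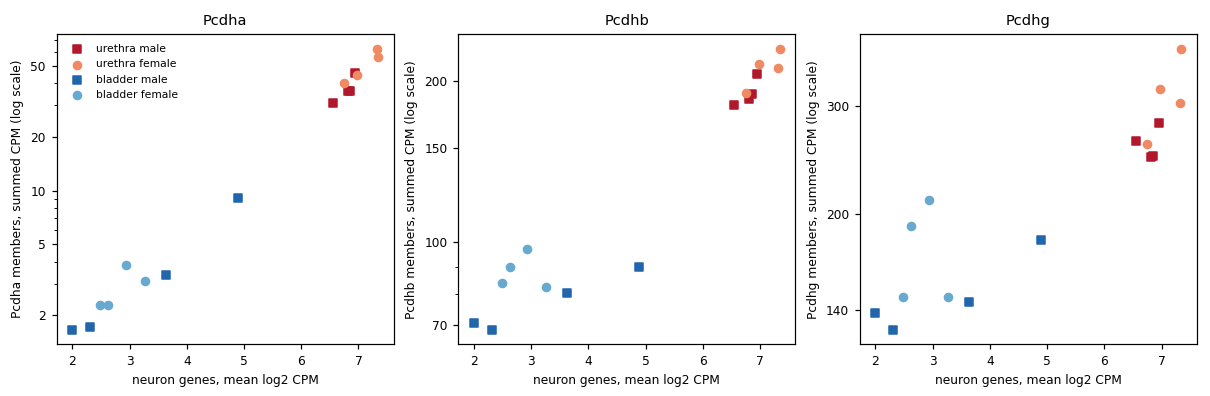
Summed CPM of the Pcdha, Pcdhb and Pcdhg members (log scale) against the mean log2 CPM of 20 neuron genes in each of the 16 libraries. The third male bladder, at 4.89 on the neuron axis, lies above the other bladders for Pcdha (9.07 CPM) and among them for Pcdhb (89.8 CPM) and Pcdhg (181.5 CPM).

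Pcdh1, Pcdh7, Pcdh9 and Pcdh11x form the non-clustered group whose longer cytoplasmic tail carries a phosphatase-binding motif, and they moved in both directions. Pcdh9, which is found in several brain circuits, rose steeply. It had 14.5, 14.1, 17.2 and 15.02 CPM in male urethras and 12.1, 18.1, 15.6 and 19.2 CPM in female urethras, against 2.36, 2.34, 4.03 and 1.77 CPM in male bladders and 2.18, 2.78, 2.63 and 2.55 CPM in female bladders (log2 fold change 2.597 ± 0.14, adjusted p = 5.51e-11). The highest bladder, at 4.03 CPM, was the third male one, and the lowest urethra had 12.1 CPM.

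Pcdh7, a broadly expressed adhesion gene, was the member that fell furthest. It had 49.4, 42.01, 50.9 and 43.9 CPM in male urethras and 50.4, 54.98, 60.3 and 54.3 CPM in female urethras, against 131, 118, 163 and 113 CPM in male bladders and 130.3, 108, 204 and 141 CPM in female bladders (log2 fold change −1.45 ± 0.11, adjusted p = 7.6e-09). No urethra exceeded 60.3 CPM and no bladder was under 107.9 CPM. In the bladder it was next to Pcdh18 among the non-clustered genes per kb of own bases, at 13.1 ± 2.98 CPM per kb, against 4.79 ± 0.561 CPM per kb in urethras (SD, n = 8 each).

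Pcdh1, which is known from airway epithelium, had 90.5, 86.4, 96.96 and 92.7 CPM in male urethras and 75.5, 114, 91.4 and 110.4 CPM in female urethras, against 42.5, 44.2, 64.3 and 42.3 CPM in male bladders and 36.03, 37.96, 40.6 and 37.4 CPM in female bladders (log2 fold change 1.14 ± 0.09515, adjusted p = 1.38e-08). The third male bladder was again the highest bladder, and still below every urethra. Pcdh11x, which lies on the X chromosome, had 10.9, 11.3, 10.6 and 9.601 CPM in male urethras and 12.7, 12.9, 10.5 and 13.4 CPM in female urethras, against 6.27, 7.01, 6.62 and 7.95 CPM in male bladders and 9.51, 8.24, 6.48 and 7.59 CPM in female bladders (log2 fold change 0.62 ± 0.08, adjusted p = 3.9e-06). The tissues were apart, with 9.51 CPM as the highest bladder and 9.60 CPM as the lowest urethra.

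Pcdh8, Pcdh10, Pcdh17, Pcdh18 and Pcdh19 form the other main non-clustered group, several of which bind the WAVE complex that drives actin branching. All 5 rose. Pcdh10, which guides axons in the forebrain, rose most of the non-clustered genes. It had 37.98, 35.8, 33.8 and 31.8 CPM in male urethras and 52.4, 64.5, 62.6 and 75.6 CPM in female urethras, against 8.28, 12.4, 10.1 and 3.54 CPM in male bladders and 4.64, 6.71, 7.09 and 4.94 CPM in female bladders (log2 fold change 2.73 ± 0.18, adjusted p = 1.25e-09). Every urethra was above every bladder, and within urethras every female library was above every male one.

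The promoters of Pcdh10, the non-clustered gene that rose most, Pcdh7, which fell, and Pcdh19, which differed by sex in both tissues, are shown from RefSeq on GRCm38.p6, each 250 bases before to 50 after the gene's start, with CG dinucleotides in capitals because methylation acts on them. They lie at chr3:45378148-45378447 on the plus strand, chr5:57717831-57718130 on the plus strand and chrX:133688944-133689243 on the minus strand.
Pcdh10: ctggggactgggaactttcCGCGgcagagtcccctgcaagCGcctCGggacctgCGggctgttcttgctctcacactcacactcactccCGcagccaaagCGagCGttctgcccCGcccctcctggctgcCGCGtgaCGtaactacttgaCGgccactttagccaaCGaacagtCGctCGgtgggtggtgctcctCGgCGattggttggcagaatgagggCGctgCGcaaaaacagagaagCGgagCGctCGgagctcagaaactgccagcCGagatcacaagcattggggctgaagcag
Pcdh7: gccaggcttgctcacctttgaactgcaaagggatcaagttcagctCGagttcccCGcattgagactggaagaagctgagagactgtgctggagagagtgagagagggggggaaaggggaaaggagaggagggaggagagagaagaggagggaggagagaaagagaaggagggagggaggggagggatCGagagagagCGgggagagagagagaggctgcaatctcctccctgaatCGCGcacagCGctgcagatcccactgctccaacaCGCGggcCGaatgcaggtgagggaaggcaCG
Pcdh19: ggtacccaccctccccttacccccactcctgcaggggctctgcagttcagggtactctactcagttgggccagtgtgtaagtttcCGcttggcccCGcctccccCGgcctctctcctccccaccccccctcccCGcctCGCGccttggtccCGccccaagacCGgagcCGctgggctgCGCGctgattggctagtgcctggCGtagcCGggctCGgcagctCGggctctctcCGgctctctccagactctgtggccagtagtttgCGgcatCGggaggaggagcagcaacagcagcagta
The Pcdh10 window held 24 CG dinucleotides, more than 80% of the 32851 promoters of the table, whose median was 7. The Pcdh7 window held 11 and the Pcdh19 window 18. Promoters were matched for 9 of the 12 non-clustered members, with 4 to 26 CG dinucleotides each. Among the members with a window, the letters TATAAA, sought on both strands, were in those of Pcdh8 and Pcdh15. They were in 13.6% of all promoters. These counts describe letters and say nothing of methylation in these tissues.

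Pcdh18 was the highest non-clustered gene per kb of own bases in both tissues, at 35.5 ± 9.66 CPM per kb in urethras and 20.1 ± 3.599 in bladders (SD, n = 8 each). It had 149, 138, 159.6 and 145 CPM in male urethras and 212, 201, 234 and 284 CPM in female urethras, against 95.8, 92.9, 114 and 89.8 CPM in male bladders and 102, 95.9, 144 and 128 CPM in female bladders (log2 fold change 0.79 ± 0.09, adjusted p = 5.95e-07). The tissues overlapped, since the third female bladder, at 143.9 CPM, was above the second male urethra, at 137.9 CPM. Within each sex they did not overlap.

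Pcdh17, which acts at synapses of the basal ganglia, had 31.2, 25.7, 32.5 and 28.7 CPM in male urethras and 28.6, 39.1, 35.4 and 43.3 CPM in female urethras, against 12.9, 11, 18.3 and 9.99 CPM in male bladders and 12.6, 11.5, 19.5 and 14.9 CPM in female bladders (log2 fold change 1.25 ± 0.13, adjusted p = 2.97e-07). Pcdh8, which takes part in the sorting of paraxial mesoderm, had 1.82, 2.03, 2.32 and 1.66 CPM in male urethras and 2.097, 2.57, 2.71 and 2.496 CPM in female urethras, against 0.1505, 0.292, 0.8797 and 0.859 CPM in male bladders and 0.336, 0.739, 0.8101 and 1.27 CPM in female bladders (log2 fold change 1.73 ± 0.25, adjusted p = 7.3e-06). For both genes the lowest urethra was above the highest bladder. Pcdh19, an X-linked gene whose human counterpart is known from an epilepsy of girls, had 15.1, 10.8, 11.8 and 10.02 CPM in male urethras and 18.1, 17.9, 18.4 and 19.6 CPM in female urethras, against 9.03, 10.2, 8.06 and 9.399 CPM in male bladders and 12.9, 12.7, 14.6 and 13.96 CPM in female bladders (log2 fold change 0.42 ± 0.08, adjusted p = 0.000167). Its female bladders lay within the range of the male urethras, so that the tissues overlapped over both sexes.

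Pcdh20 had 7.95, 8.63, 8.01 and 6.87 CPM in male urethras and 6.29, 7.299, 7.74 and 6.64 CPM in female urethras, against 3.71, 4.72, 2.18 and 2.74 CPM in male bladders and 3.41, 3.296, 2.38 and 3.13 CPM in female bladders (log2 fold change 1.22 ± 0.13, adjusted p = 2.49e-07), with no overlap. Pcdh12, an endothelial protocadherin, had 25.5, 21.9, 20.96 and 20.6 CPM in male urethras and 21.4, 24.3, 25.6 and 25.2 CPM in female urethras, against 17.7, 10.7, 17.7 and 12.2 CPM in male bladders and 15.4, 15.1, 19.1 and 15.8 CPM in female bladders (log2 fold change 0.59 ± 0.09997, adjusted p = 5.17e-05), also with no overlap. The endothelium list had a median of 0.68, and its part in the Pcdh12 difference was not tested. Pcdh15, known from the tip links of hair cells, was the non-clustered member without a call, at 0.926, 0.839, 1.02 and 1.31 CPM in male urethras and 1.14, 1.73, 2.03 and 2.12 CPM in female urethras, against 1.15, 0.876, 0.648 and 1.396 CPM in male bladders and 1.12, 0.966, 1.22 and 1.11 CPM in female bladders (log2 fold change 0.34 ± 0.17, adjusted p = 0.0825). It was the lowest non-clustered gene per kb, at 0.0585 ± 0.0213 CPM per kb in urethras and 0.0446 ± 0.00960 in bladders. In females it was called (log2 fold change 0.66 ± 0.24, adjusted p = 0.0209) and in males it was not (0.02 ± 0.25, adjusted p = 0.947), and the difference between the sexes was itself not called (−0.64 ± 0.35, adjusted p = 0.677). With library totals as the only scaling, which moved the median of all genes by 0.14 on the log2 scale, Pcdh15 was called over both sexes (log2 fold change 0.48, adjusted p = 0.0179, within 0.0179 to 0.708 over all alternatives).

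**Figure D5:**
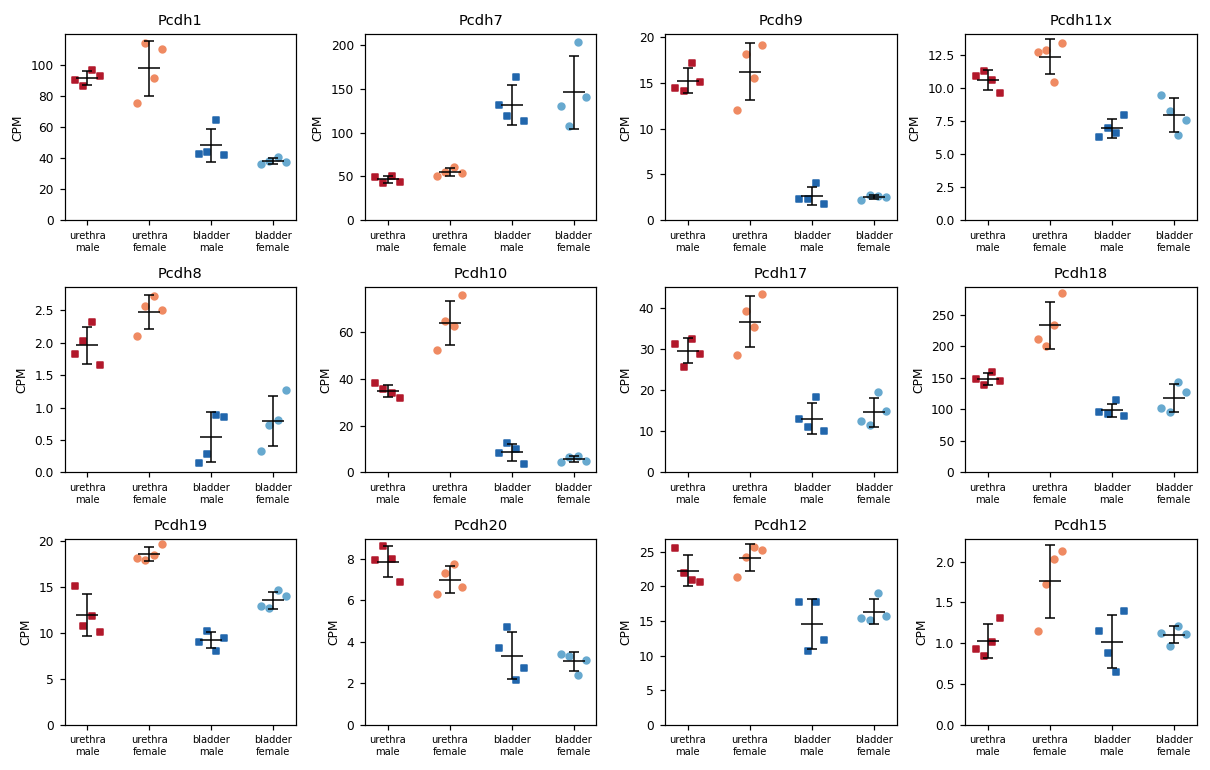
CPM of the 12 non-clustered members in every library, with the mean and SD of each group of 4, in male urethra, female urethra, male bladder and female bladder. Pcdh7 alone is lower in every urethra than in every bladder, and Pcdh10, Pcdh18 and Pcdh19 are lower in every male urethra than in every female one.

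The rise in the urethra was seen in each sex. In females 61 members were higher and 2 lower, beside 32.6% and 33.1% of all tested genes (65.7% in either direction). In males 60 were higher and 2 lower, beside 31.4% and 32.6% (64.0% in either direction). Both counts hold the 8 Pcdha members that reached the limit through the urethra alone and so had to differ. Apart from Pcdha, 21 of 21 Pcdhb, 20 of 22 Pcdhg and 11 of 12 non-clustered members were higher in females. In males these were 21, 20 and 10. The female calls of Pcdhga8, Pcdhga2 and Pcdh15 held in 21, 24 and 22 of 26 alternatives, and each was lost with the epithelium covariate (adjusted p 0.12 to 0.236) and without female urethra replicates 3 and 4 together (adjusted p 0.0979 to 0.282). Pcdhga8 also lost its call without female bladder replicate 1 or 2 or female urethra replicate 4 (adjusted p 0.0571 to 0.0596), and Pcdh15 without female urethra replicate 3 or 4 (adjusted p 0.0588 to 0.0649). The same 60 members, with the 8 Pcdha members among them, were called higher in both sexes and the same 2 lower. For Pcdha the median log2 fold change was 3.24 in males and 4.29 in females, and from pooled counts, with genes at 0 held at their bound, 3.42 in males and 4.41 in females. Without the third male bladder the fold of 6 Pcdha members in males moved by more than 1.5 times, all upward. Pcdha12 then had a log2 fold change in males of 5.01, against 3.24 with the library, Pcdha11 one of 4.13 against 3.04, Pcdha7 one of 4.82 against 3.75, Pcdha3 one of 4.24 against 3.24, Pcdhac2 one of 3.85 against 3.09 and Pcdhac1 one of 4.30 against 3.59.

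The difference between the tissues was not shown to depend on sex. In the edgeR test of the interaction of tissue and sex no member was called, beside 0.668% of all genes, while 6 had an unadjusted p under 0.05, beside 8.38% of all genes. DESeq2 called 1 member, beside 1.5% of all genes, and limma-voom called 0, beside 0.652%. A count of 1 of 64 is near that background. The nearest was Pcdh10, whose rise was 3.45 ± 0.26, adjusted p = 1.77e-08 in females and 2.01 ± 0.24, adjusted p = 3.08e-06 in males (interaction −1.43 ± 0.35, adjusted p = 0.0924). DESeq2 called it (adjusted p = 0.00759, within 0.000919 to 0.313 over all alternatives), as did the edgeR test without the fourth male bladder, which had the lowest Pcdh10 level of its group, at 3.54 CPM.

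Between the sexes of the urethra 3 members differed, beside 6.39% of all tested genes. Pcdh10, Pcdh18 and Pcdh19 were lower in males, beside 2.42% of all tested genes, and no member was higher, beside 3.97%. A count of 3 of 64 is near these backgrounds, so the genes are described singly. Pcdh19 had 15.1, 10.8, 11.8 and 10.02 CPM in male urethras and 18.1, 17.9, 18.4 and 19.6 CPM in female urethras (log2 fold change of male over female −0.63 ± 0.11, adjusted p = 0.00178). Pcdh18 had 149, 138, 159.6 and 145 CPM in male urethras and 212, 201, 234 and 284 CPM in female urethras (log2 fold change −0.66 ± 0.13, adjusted p = 0.00402). Pcdh10 had 37.98, 35.8, 33.8 and 31.8 CPM in male urethras and 52.4, 64.5, 62.6 and 75.6 CPM in female urethras (log2 fold change −0.87 ± 0.22, adjusted p = 0.0275). For none of the 3 genes did the sexes overlap, and the share of all tested genes without such overlap was not counted.

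These calls differed in how they stood up to other settings. Pcdh19 was called in 25 of 25 alternatives and Pcdh18 in 24 of 25. Pcdh10 was called in 14 of 25, and lost its call when any 1 of the 4 male urethras, or female urethra replicate 2, 3 or 4, was left out (adjusted p 0.0518 to 0.0941). With the litter as a replicate block 5 members were called, Pcdhga9 (adjusted p = 0.0437) and Pcdh15 (adjusted p = 0.033) besides these 3, beside 8.22% of all genes under the same block. Without the first female urethra 6 were called, beside 9.22% of all genes. Both counts are near their background. Over all 64 members 61 had a negative log2 fold change of male over female, beside 52.7% of all tested genes, and 15 an unadjusted p under 0.05, beside 19.2%. The median was −0.26, against −0.01 over all tested genes. The epithelium list had a mean log2 CPM of 6.49 ± 0.191 in male urethras and 5.75 ± 0.727 in female urethras (SD, n = 4 each), with overlapping ranges. Of its 20 genes 1 was called, higher in males. The list was lowest in female urethra replicates 3 and 4. Without those 2 libraries 1 member was called, beside 1.99% of all genes, and with the epithelium level as a covariate the log2 fold change of Pcdh10 was −0.71 (adjusted p = 0.223, within 0.000769 to 0.269 over all alternatives). Of the 12 mesenchyme genes 2 were called, both lower in male urethras, with Prrx1 among them (−0.54 ± 0.11, adjusted p = 0.00672). The part of these markers in the sex differences was not tested.

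In the bladder 1 member differed between the sexes, beside 0.581% of all tested genes. Pcdh19 was lower in males, beside 0.334% of all tested genes, with 9.03, 10.2, 8.06 and 9.399 CPM in male bladders and 12.9, 12.7, 14.6 and 13.96 CPM in female bladders (log2 fold change of male over female −0.56 ± 0.12, adjusted p = 0.0373). The sexes did not overlap. The call was kept in 14 of 25 alternatives, and was lost with the litter as a replicate block (adjusted p = 0.0507, within 0.00102 to 0.169 over all alternatives). It was also lost without any 1 of 8 libraries, of which 5 were bladders, female replicates 3 and 4 and male replicates 1, 3 and 4 (adjusted p 0.0719 to 0.126). The other 3 were urethras, female replicates 2 and 3 and male replicate 3 (adjusted p 0.051 to 0.0593). Of the 12 mesenchyme genes Prrx1 alone was called, lower in male bladders as well (−0.79 ± 0.11, adjusted p = 0.00307). The part of Prrx1 was not tested. Pcdh10, by contrast, had a log2 fold change of 0.56 in the bladder that did not pass the test (adjusted p = 0.417).

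Genes known to act on or with protocadherins had medians near 0, and their counts stand beside 36.5% higher and 38.5% lower over all tested genes. Of 22 genes that regulate the clusters or the methylation of their promoters, 11 were higher and 2 lower in the urethra, with a median log2 fold change of 0.11. The highest was Dnmt3a, a DNA methyltransferase (0.43 ± 0.07, adjusted p = 1.71e-05), and the lowest Rad21, a cohesin subunit (−0.15 ± 0.03, adjusted p = 7.55e-05). Of 28 partner genes 13 were higher and 5 lower, with a median of 0.07. The highest was Ret, a receptor tyrosine kinase of enteric and autonomic neurons that phosphorylates clustered protocadherins (4.06 ± 0.39, adjusted p = 1.96e-07), and the lowest Ptk2b, a kinase that the constant parts of Pcdha and Pcdhg inhibit (−2.13 ± 0.12, adjusted p = 1.76e-10).

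Other branches of the cadherin family are set beside the same shares. Of 15 atypical cadherins 12 were higher and 2 lower (median 1.11), with Celsr3, a planar polarity cadherin of axon tracts, at 3.78 ± 0.40 (adjusted p = 5.85e-07) and Dchs2, a ligand of Fat cadherins, at −0.94 ± 0.20 (adjusted p = 0.000466). Of 22 classical and related cadherins 14 were higher and 4 lower (median 0.82), with Cdh15, the muscle cadherin, at 3.86 ± 0.16 (adjusted p = 3.63e-12) and Cdh17 at −1.17 ± 0.20 (adjusted p = 4.85e-05).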

How the data were processed

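The submitters' processing notes name bcl2fastq, HISAT2 2.1.0 with GRCm38, SAMtools and Subread 1.6.3. The deposited table holds read-pair counts per gene symbol, made with strand setting 2 and without multimapping or multi-gene reads, per the file headers. No annotation release was stated, and 68 of the 69 protocadherin rows had the start and end of GENCODE mouse release M21, which supplied exon positions. A second deposited table of normalised values was not used.

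Members were chosen on CPM from plain library totals. All other CPM used TMM-scaled totals, and the log2 CPM of marker lists used a prior count of 2. The test was edgeR 4.0.16 (R 4.3.3) with TMM, filterByExpr and robust quasi-likelihood fits of 4 groups, with Benjamini-Hochberg adjusted p over all 18254 tested genes. Standard errors are the size of the log2 fold change over the root of the F statistic. On simulated counts of the urethra against bladder comparison (17928 genes), 100% of genes changed by log2 1 or 2 (100 genes each) were called. Of the unchanged genes 11 were called. The changed genes there were few and well counted, and all genes had the same spread. This does not describe members with few bladder counts. DESeq2 1.42.0 and limma 3.58.1 were alternatives, with other scalings, no filter, litter blocks, an epithelium covariate, other limits of membership and leaving out each library. Counting intervals are exact, at 95%. Figures used Python 3.11.15, pandas 2.3.3 and matplotlib 3.10.9.

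The members, gene lists and tests were chosen with earlier results of these data known. Named genes were all non-clustered members, per array the 2 highest by CPM and the 2 highest and 2 lowest by fold change among those called, members called by sex or interaction, and 2 on either side of the 0.5 CPM limit. Of each cadherin, partner and regulator list the highest and lowest called genes were named. Further members are named as the few of a count or an array order, after their values were seen. Libraries of a group were no copies of each other (chi-squared per degree of freedom 4.91 to 37.2 over 24 pairs). The labels give each replicate number a litter, so numbers pair the libraries. Deviations from the group means correlated at 0.0921 to 0.409 between tissues of 1 litter and sex (7 of 8 pairs over 0.1), against a median of −0.05 between litters. Tissue contrasts over both sexes hold each litter once per sex.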

Additional observations from a re-analysis of the deposited data

Results flagged for a closer look

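In 156 checks of 34 genes and 5 class sums in groups of 4 libraries, 10 had 1 library far from the other 3 by Dixon's criterion, which flags about 1 group in 20 by chance. A count of 10 of 156 is near that share. Of the 10 flags, 4 concerned the third male bladder, the library with the highest neuron level of the bladders. It was the highest of its group for Pcdh1 (64.3 CPM, against 42.3, 42.5 and 44.2), for Pcdha12 (1.53 CPM, against 0.107, 0.146 and 0.201), for Pcdhgb7 (6.85 CPM, against 5.02, 5.05 and 5.11) and for Pcdhga11 (4.26 CPM, against 2.79, 2.86 and 2.92). The fourth male bladder was the highest of its group for Pcdhgb1 (2.52 CPM, against 1.96, 2.00 and 2.04).

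Among female bladders the second was the lowest for Pcdhb17 (7.27 CPM, against 10.1, 10.1 and 10.5), and the third was the highest for Pcdhb10 (1.47 CPM, against 0.739, 0.783 and 0.796). For Pcdhac1 the third female bladder held 0.0506 CPM, and for Pcdha6 the second held 0.0568 CPM, each a single count where the other 3 were at 0. Among female urethras the first was the lowest for Pcdhb22 (14.1 CPM, against 18.4, 18.6 and 19.3).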

How the results depend on the processing

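Between the tissues 62 to 63 members were called under every scaling, test, block, covariate and omission of a library. Beside them stood 44.4% of all genes without the expression filter and 65.4% to 77.9% under the other settings. The counts of 62 to 63 include the 2 lower members and the 8 Pcdha members that had to differ. Under other limits of membership 58 to 63 were called, beside 75.0% of all tested genes. Between male and female urethras 3 members were called, beside 6.39% of all tested genes. With the litter as a replicate block 5 were called, beside 8.22% of all genes. Without the male libraries of litter 3 (an omission chosen after seeing the data) 5 were called, beside 5.47%. Without female urethra replicates 3 and 4 (likewise) 1 was called, beside 1.99%. When 1 library was left out 2 to 6 were called, beside 3.68% to 9.22%, with 6 without the first female urethra. Between male and female bladders 1 was called, beside 0.581% of all tested genes. With the litter as a replicate block 0 were called, beside 0.723% of all genes. With the epithelium covariate 0 were called, beside 0.208%, and without the male libraries of litter 3 also 0, beside 0.354%. When 1 library was left out 0 to 1 were called, beside 0.215% to 0.938%. For the interaction 0 were called, beside 0.668% of all tested genes, against 1 with DESeq2, beside 1.5%. When 1 library was left out 0 to 1 were called for it, beside 0.382% to 0.792%. The replicate block by litter also called Pcdhgb8 between the tissues. For Pcdh15 in males the log2 fold change of urethra over bladder (0.02) turned to −0.19 with the epithelium covariate, lay between −0.12 and 0.204 when 1 library was left out, below 0 without male bladder replicate 2 or 3 or male urethra replicate 4, and was −0.13 without the male libraries of litter 3. The interaction of Pcdh19 (−0.07) lay between −0.204 and 0.0051 when 1 library was left out, above 0 without male urethra replicate 4. The cause of these shifts was not tested. Of 2646 values of named genes under 26 alternatives, 2606 kept their direction and their side of the threshold. Pcdha members in bladders rest on few counts, which limits their fold changes.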

Other observations

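Pcdhgb8 and Pcdhb6 were the members of the Pcdhg and Pcdhb arrays whose levels went most with the litter. The range of the 4 litter means, as deviations from group means in log2 CPM, was 1.29 for Pcdhgb8, the highest of the 64 members, and 0.96 for Pcdhb6, against a median of 0.39. In both genes the first litter was below the group mean in 4 of 4 libraries (mean deviation −0.70 for Pcdhgb8 and −0.63 for Pcdhb6) and the second above it in 4 of 4 (0.59 and 0.33). Both genes were singled out after their values were seen. Between them by the range of litter means lay Pcdha3 (1.065), Pcdha11 (1.034) and Pcdh8 (0.958).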
